A study of Mus musculus with 2 samples.

Results

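The cells described here are FAPs with transcripts of Lgr5, Pappa2 or Kdr. FAPs (fibro/adipogenic progenitors) are the mesenchymal cells of skeletal muscle. Members were chosen cell by cell from the UMI counts (unique molecular identifiers, each 1 captured transcript). A member had a P score under 25, where P is the summed UMIs of Pi16, Sema3c, Anxa3 and Efemp1 per 10000 UMIs of the cell, so that cells rich in those Dpp4-type genes were left out. It had fewer than 3 UMIs of Chad, Tnmd and Cilp2, which are genes of tendon and cartilage. It also had at least 2 UMIs of Lgr5, Pappa2 and Kdr together. These 10 genes are the gate, and their values in members are a description of the choice. The rule took 234 of 8481 cells, 162 of the 4103 cells in the library labelled Bap1WT and 72 of the 4378 cells in the library labelled Bap1ΔMPC. Reference cells were the 2678 and 2925 cells with P under 25 and no UMI of the 3 genes, whatever their UMIs of Chad, Tnmd and Cilp2.

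Both libraries were made from limb muscle of 3-week-old C57BL/6 mice by droplet 3′ sequencing of cells sorted as 7AAD-, CD45-, CD31-, Vcam1- and Sca1+. The Bap1WT mice carried the floxed alleles without Cre (Bap1f/f), and the Bap1ΔMPC mice carried the same floxed alleles with Prx1-Cre, which acts in limb bud mesenchyme and its descendants and so also in mesenchymal cells other than FAPs. Each genotype had 1 library, and how many mice were pooled in it is not given in the sources used here. Differences between genotypes thus rest on 1 library a side, and no test was possible. Genotype, library and sequencing run cannot be told apart.

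Lgr5 is a receptor for R-spondins, which strengthen Wnt signals by keeping Wnt receptors on the cell surface. Pappa2 is a secreted protease that cuts IGF-binding proteins and so frees IGF. Kdr (VEGFR2) is the main VEGF receptor and is best known from endothelial cells, so a Kdr transcript in a sorted mesenchymal cell calls for a check against endothelial markers. Fbn2 (fibrillin-2) builds the microfibrils on which elastic fibres form, and Sfrp2 is a secreted protein that binds Wnts.

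The libraries held 51015705 and 49540066 UMIs, and Bap1 stood at 17.6 CPM (UMIs per 1000000 UMIs, 95% interval 16.5 to 18.8) in the Bap1WT library and at 21.6 CPM (20.4 to 23.0) in the Bap1ΔMPC library. Bap1 counts were thus not lower where deletion is labelled. The study's methods describe a deletion of exons that shifts the reading frame, and a transcript without them can still be counted at its 3′ end. These counts thus check neither label, and directions are those of the libraries as labelled. Members had more UMIs than reference cells, with medians of 15563.5 against 11509 per cell in the Bap1WT library and 12382.5 against 10634 in the Bap1ΔMPC library. The libraries shared 5 cell barcodes, none of them a member's. All intervals here are exact 95% intervals and cover counting error only.

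Members carried FAP markers in both libraries. The sort gene Ly6a (Sca1) had a UMI in 99.4% of members of the Bap1WT library and 94.4% of those of the Bap1ΔMPC library. The FAP receptor gene Pdgfra was detected in 87.0% and 84.7%, beside 96.5% and 87.9% of reference cells. With every cell thinned to 6000 UMIs it was detected in 65.4% and 70.1% of members and 87.1% and 77.5% of reference cells. Pdgfra thus stood lower in members, at 235 against 407 CPM in the Bap1WT library and 295 against 354 CPM in the Bap1ΔMPC library. Of 10 general FAP genes on a fixed list, all had UMIs in members of both libraries. None passed 2-fold the same way in both, but only 0.706% of all genes tested were higher and 2.32% lower. The list summed to 110570 CPM in members against 58170 CPM in reference cells of the Bap1WT library, and to 54292 against 35252 CPM in the Bap1ΔMPC library. Its median log2 ratios were only 0.085 and 0.066, so the sums do not describe the typical gene of the list. Muscle stem cell regulators Pax7, Myf5, Myod1 and Myog and the leukocyte gene Ptprc were at 0 in members of both libraries, where 0 UMIs allow up to 1.20 and 3.25 CPM. In reference cells these genes were at 0 too, apart from Myog with 2 and 3 UMIs.

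Endothelial markers were sparse. Per the study's methods, cells rich in markers of other muscle cells were removed, and whether the deposited tables precede that step is not given. Pecam1 (CD31) had a UMI in 10 of 162 members (6.17%) and 2 of 72 (2.78%), beside 2.54% and 4.89% of reference cells. With every cell thinned to 6000 UMIs these shares were 3.14% and 2.99% of members and 1.11% and 3.30% of reference cells. Cdh5 (VE-cadherin) had a UMI in 2 members of the Bap1WT library and in 0 of 72 in the Bap1ΔMPC library, which allows a share of up to 4.99%. No member had UMIs of both genes, which allows up to 2.25% of members of the Bap1WT library. Of 17 endothelial markers, Emcn, Esam, Cldn5, Erg, Sox17 and Robo4 were at 0 in members of both libraries. In reference cells they had 2, 18, 3, 3, 3 and 1 UMIs in the Bap1WT library and 3, 20, 1, 0, 4 and 0 in the Bap1ΔMPC library. With so few UMIs in reference cells, the zeros in members say little. The list summed to 79.4 CPM in members and 199.6 CPM in reference cells of the Bap1WT library, and to 145 and 178 CPM in the Bap1ΔMPC library. Much of the sum came from Eng, Plvap and Tek, with 3122, 1254 and 1246 UMIs in reference cells of the Bap1WT library. Without cells carrying a Pecam1 or Cdh5 UMI, the members' share of cells with P under 25 was 5.16% and 2.37%, against 5.31% and 2.30% with them.

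Members made up 5.31% of cells with P under 25 in the Bap1WT library (162 of 3053, interval 4.54 to 6.16) and 2.30% in the Bap1ΔMPC library (72 of 3127, 1.81 to 2.89). The Bap1ΔMPC library was shallower, with a median of 11017.5 UMIs per cell against 12232. With cells thinned to 6000 UMIs the shares were 2.40% (1.87 to 3.03) and 1.06% (0.720 to 1.52), after 224 and 382 shallower cells were left out. The share was higher in the Bap1WT library under each of the 8 alternative rules run. These intervals cover the counting of cells within a library, so they are no test of the genotypes. In cells with P of 25 or more, where the 3 genes did not serve to choose members, 2.19% (23 of 1050) and 0.240% (3 of 1251) had 2 or more UMIs of the 3 genes. Members at the edge of the rule were frequent, since 57 of the 162 and 34 of the 72 had exactly 2 such UMIs. A total of 182 and 117 cells with P under 25 had exactly 1. On the P score, 11 and 3 members lay between 20 and 25, and 3 of 95 and 0 of 172 cells between 25 and 30 had 2 or more UMIs of the 3 genes.

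The 3 gate genes met in the same cells in the Bap1WT library and rarely did so in the Bap1ΔMPC library. In the Bap1WT library 16 members had Lgr5 alone, 15 Pappa2 alone and 50 Kdr alone, while 65 had 2 of the genes and 16 had all 3. In the Bap1ΔMPC library the numbers were 22 with Lgr5 alone, 16 with Pappa2 alone, 28 with Kdr alone, 6 with 2 genes and 0 with all 3, which allows a share of up to 4.99%. Cells with 2 or 3 of the genes were thus 81 of 162 and 6 of 72 members.

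**Figure D1:**
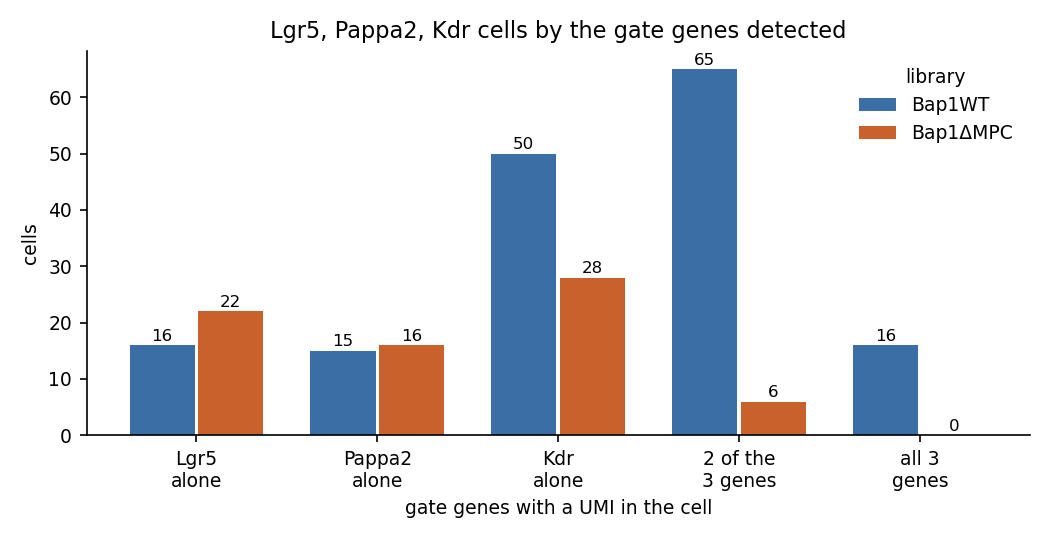
Members by the gate genes with a UMI in the cell. Bars give cells in the Bap1WT (blue) and Bap1ΔMPC (orange) libraries, and 65 and 16 cells of the Bap1WT library stand against 6 and 0 of the Bap1ΔMPC library where 2 or all 3 genes were detected.

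Among all cells with P under 25 and under 3 tendon-gate UMIs, Lgr5 was detected in 4.03% (118 of 2926) and 1.65% (47 of 2856), Pappa2 in 3.66% and 1.09%, and Kdr in 6.77% and 3.82%. In the Bap1WT library Pappa2 was detected in 34 of the 118 cells with Lgr5 (28.8%, interval 20.8 to 37.9) and in 2.60% of those without. In the Bap1ΔMPC library it was detected in 1 of the 47 cells with Lgr5 (2.13%, 0.0539 to 11.3) and in 1.07% of those without. Kdr was detected in 34.7% of the Lgr5 cells and 5.59% of the others in the Bap1WT library, and in 4.26% and 3.81% in the Bap1ΔMPC library. Deeper cells show more genes of any kind, and after thinning Pappa2 stood at 19.3% against 1.66% in the Bap1WT library and at 3.33% against 0.788% in the Bap1ΔMPC library. The last value rests on 1 of 30 cells. Because these are the genes of the rule, their overlap is a description. Most members of the Bap1ΔMPC library carried 1 of the genes, as did 81 of the 162 of the Bap1WT library, so the label of a Lgr5, Pappa2 and Kdr cell holds for part of them, and "members" below means cells that met the rule.

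The marker genes Fbn2 and Sfrp2 were not used by the rule, but they were named with earlier results of these data known. Their higher levels in members than in reference cells of both libraries are thus a description. The log2 ratio of Fbn2 was 2.99 and 3.11 in the Bap1WT and Bap1ΔMPC libraries, and that of Sfrp2 was 3.69 and 1.42. Fbn2 stood at 373 CPM in members of the Bap1WT library (interval 349 to 397) against 47.0 CPM in reference cells, and at 181 CPM (155 to 211) against 20.9 CPM in the Bap1ΔMPC library. It was detected in 80.2% and 44.4% of members, against 23.7% and 11.5% of reference cells, and after thinning in 63.5% and 25.4% against 15.2% and 7.93%. Sfrp2 stood at 2065 CPM (2009 to 2123) against 159.7 CPM in the Bap1WT library, and at 148 CPM (124 to 174) against 55.1 CPM in the Bap1ΔMPC library. Detected in 79.0% of members of the Bap1WT library, it was seen in 19.4% of those of the Bap1ΔMPC library, where 46 of its 136 UMIs came from 1 cell. Sfrp2 did not set members apart from every other FAP, since cells with P of 25 or more had it in 76.5% and 36.8%.

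Members also resembled each other beyond the gate in the Bap1WT library. Nearest neighbours were found within each library among cells with P under 25, from 5000 variable genes and 8 principal components without the gate genes. Of the 20 nearest neighbours of a member, 42.9% on average were members in the Bap1WT library, where members were 5.28% of the other cells. In the Bap1ΔMPC library this was 7.36% against 2.27%. By gate gene the means in the Bap1WT library were 24.4% for Lgr5 alone, 29.7% for Pappa2 alone, 37.1% for Kdr alone and 52.7% for cells with 2 or 3 of the genes. Cells of the same library with at least the members' median depth that were not members had 6.88% members among their neighbours. In the Bap1ΔMPC library the 4 groups stood at 8.41%, 5.31%, 7.14% and 10.0%, beside 2.18% for deep cells that were not members. At least 5 of 20 neighbours were members for 121 of 162 members in the Bap1WT library and for 2 of 72 in the Bap1ΔMPC library.

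Next, levels in members were compared with those in reference cells in each library on its own. The question was which genes go with the 3 gate genes. With 12606 genes entering (20 or more UMIs in each library), 89 were over 2-fold higher in members in both libraries (0.706% of genes tested) and 293 were over 2-fold lower (2.32%), while 71 passed 2-fold in opposite directions (0.563%). In each library alone, 278 (2.21%) and 418 (3.32%) were higher and 1618 (12.8%) and 849 (6.73%) were lower. These are calls by size without a test, since the choice of members uses the same cells. The median log2 ratio over all genes was -0.32 and -0.06, and collagen I took more of the members' UMIs, with Col1a1 at 44986 CPM against 20296 CPM in the Bap1WT library and at 19548 against 9979 CPM in the Bap1ΔMPC library. With TMM scaling, which centres most genes, the median was -0.04 and -0.01, and 128 genes were higher and 211 lower, so that the share of higher genes among those called was 37.8% in place of 23.3%. TMM scaling raised the ratios in both libraries, so the 89 genes called higher had to stay called. Of the 293 called lower, 211 were still called. Where 10 or more UMIs were observed or expected in members of each library, 47 were higher and 105 lower.

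**Figure D2:**
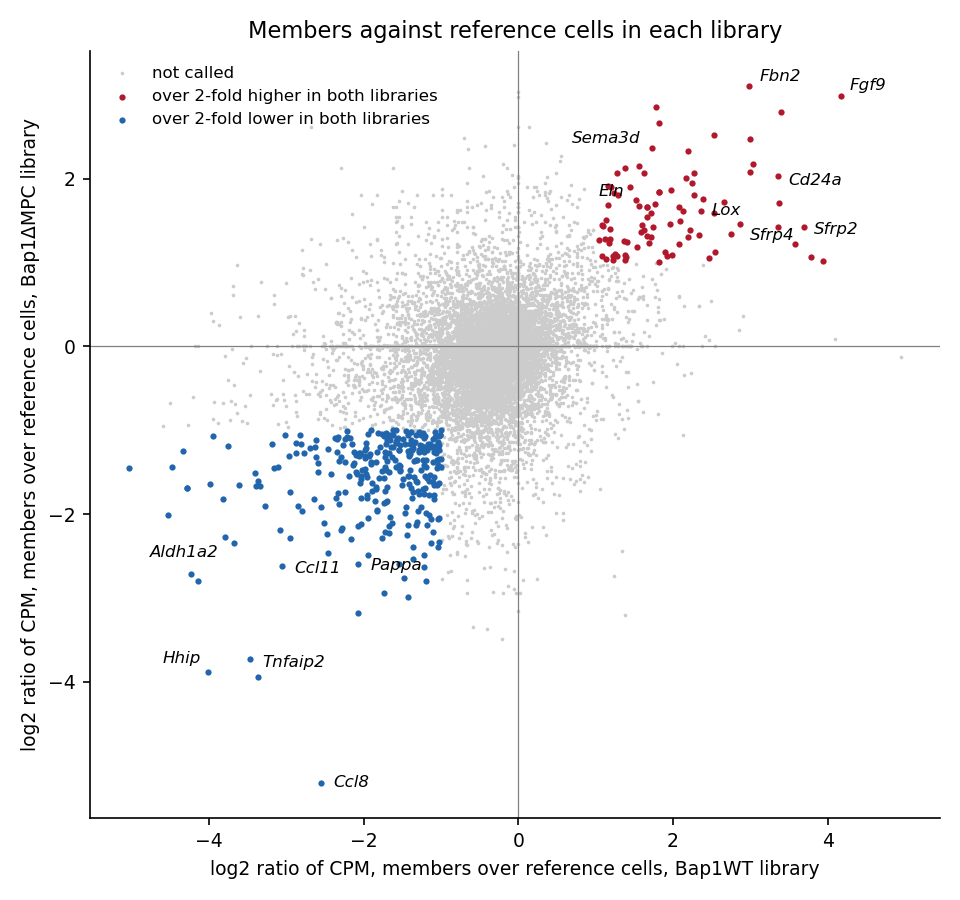
Log2 ratio of CPM in members over reference cells, with the Bap1WT library on the x axis and the Bap1ΔMPC library on the y axis. Each point is 1 of 12606 genes, red points are the 89 genes over 2-fold higher in both libraries and blue points the 293 over 2-fold lower, and Fbn2 and Fgf9 lie near 3 on the y axis.

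The promoters of 3 genes higher in members in both libraries are shown as sequence context, chosen as those with the most UMIs in members among those printable from the RefSeq table (GRCm38.p6). Each is the 250 bases before the start of the gene, 5′ to 3′ on the gene's strand, in lower case with matches to CTTTGA (the core of TCF/LEF sites, through which Wnt signals reach genes) or TATAAA, an element of many core promoters, on either strand in capitals. The Sfrp2 promoter is at chr3:83766071-83766320 (+), that of Igfbp3 at chr11:7213924-7214173 (-) and that of Cpz, a carboxypeptidase gene with a Wnt-binding domain whose log2 ratios were 1.36 (1.26 to 1.46) and 1.26 (0.90 to 1.59), at chr5:35525627-35525876 (-).
Sfrp2: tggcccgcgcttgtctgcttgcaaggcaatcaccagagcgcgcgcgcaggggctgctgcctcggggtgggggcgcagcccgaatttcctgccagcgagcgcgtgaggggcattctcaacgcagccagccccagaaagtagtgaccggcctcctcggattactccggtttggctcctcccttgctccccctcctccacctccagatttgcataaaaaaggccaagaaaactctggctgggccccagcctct
Igfbp3: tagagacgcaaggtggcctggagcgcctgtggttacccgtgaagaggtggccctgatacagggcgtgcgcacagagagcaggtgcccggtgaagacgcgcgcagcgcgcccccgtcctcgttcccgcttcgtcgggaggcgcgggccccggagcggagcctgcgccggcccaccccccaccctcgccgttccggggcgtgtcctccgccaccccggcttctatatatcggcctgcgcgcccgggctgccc
Cpz: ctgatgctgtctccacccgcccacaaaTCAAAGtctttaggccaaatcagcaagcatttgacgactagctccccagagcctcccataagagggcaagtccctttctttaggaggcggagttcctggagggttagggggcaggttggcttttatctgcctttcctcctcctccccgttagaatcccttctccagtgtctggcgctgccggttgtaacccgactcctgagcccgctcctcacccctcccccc
Only the Cpz window held a match, 1 to CTTTGA on the other strand. For 62 of the 89 higher genes the table had promoters, 80 in all, of which 10.0% held CTTTGA and 8.75% TATAAA, beside 13.8% and 12.4% of all 32851 promoters. The 288 promoters of genes lower in members held them in 12.8% and 8.68%. The shares for genes higher in members were thus not above those of all promoters, and a match in these letters is a description only.

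Growth factor and guidance genes were among those with the largest ratios. Fgf9, a secreted fibroblast growth factor, stood at 20.1 CPM in members (14.9 to 26.4) against 1.11 CPM in reference cells of the Bap1WT library, and at 32.5 CPM (22.0 to 46.5) against 4.10 CPM in the Bap1ΔMPC library, log2 ratios of 4.18 and 2.99. It was detected in only 24 and 8 members. The secreted semaphorins Sema3a, Sema3b and Sema3d, which steer growing axons and vessels, were all over 2-fold higher in both libraries. Sema3a had log2 ratios of 2.53 (1.92 to 3.11) and 2.52 (1.45 to 3.45) on 36 and 11 UMIs. Cells with P under 25 and 3 or more tendon-gate UMIs had 14.9 and 9.83 CPM of Sema3a, beside 14.4 and 11.9 CPM in members. In cells with P of 25 or more Sema3a stood at 8.93 and 0.745 CPM. Sema3d had 1.72 (1.45 to 1.99) and 2.37 (1.93 to 2.79), and Sema3b had 2.09 and 1.49. Cells with P of 25 or more also carried Sema3b, at 117 and 124 CPM beside 122 and 59.7 CPM in members, and Sema3d, at 63.1 and 25.1 CPM beside 57.4 and 57.5 CPM.

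Of 58 neurotrophic and guidance genes on a fixed list, 46 entered, 4 were higher and 3 lower in both libraries, with medians of -0.59 and -0.15. The fourth higher gene was Nrtn (neurturin, a GDNF-family ligand), with log2 ratios of 2.33 (1.76 to 2.88) and 1.33 (0.57 to 2.00) on 39 and 19 UMIs. Lower were the neurotrophin genes Bdnf, at 4 and 3 UMIs in members, and Ntf3, with -1.15 (-1.70 to -0.65) and -2.01 (-3.22 to -1.02), and the neurturin co-receptor gene Gfra2, with -1.07 and -1.21. So, within this list, members had more of some secreted guidance cues and fewer neurotrophin UMIs than reference cells.

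Of the elastic fibre genes, Eln, Fbn2 and Lox were higher in members. Eln (elastin) stood at 3130.3 CPM (3061 to 3201) against 1095 CPM in the Bap1WT library and at 3023 CPM (2912 to 3137) against 898 CPM in the Bap1ΔMPC library. Lox (lysyl oxidase), which cross-links elastin and collagen, stood at 776 CPM (742 to 811) against 151 CPM and at 291 CPM (257 to 328) against 94.8 CPM. These were the 3 higher of 28 elastic fibre genes, all 28 of which entered, and none was lower in both libraries. The list medians were -0.16 and -0.06. Fbn1, which encodes fibrillin-1, had log2 ratios of -0.10 and -0.06. Mfap4, a microfibril-associated protein, had 0.24 and 1.03, and Mfap2 had 0.63 and 0.58.

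The collagen IV chains of basement membranes differed in direction. Col4a1 stood at 460.5 CPM (434 to 488) against 1736 CPM in the Bap1WT library and at 781 CPM (725 to 840.1) against 1901 CPM in the Bap1ΔMPC library, and Col4a2, its partner chain, had log2 ratios of -1.94 (-2.07 to -1.81) and -1.04 (-1.20 to -0.89). Col4a5, a chain of another collagen IV network, was higher in both, with 1.13 (0.94 to 1.31) and 1.04 (0.63 to 1.43). Of 33 collagen genes that entered, Col4a5 was the higher gene and Col4a1, Col4a2, Col4a3 and Col23a1 were the lower ones. Col4a3, also a collagen IV chain, had -1.98 and -1.33 on 11 and 4 UMIs in members. Col23a1 rests on 1 UMI in members of each library. The fibrillar chains Col1a1 and Col1a2 had log2 ratios of 1.15 and 1.22 in the Bap1WT library and of 0.97 and 0.95 in the Bap1ΔMPC library, just short of 2-fold there.

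Of the Wnt genes, the secreted modulators Sfrp2, Sfrp4 and Dkk2 were higher in members, while Sfrp1, of the same family as Sfrp2, had log2 ratios of 0.95 and -0.43. Sfrp4 stood at 2762 CPM (2697 to 2828) against 379 CPM in the Bap1WT library and at 1236 CPM (1166 to 1310.4) against 448 CPM in the Bap1ΔMPC library. Dkk2, a secreted ligand of the Wnt co-receptors, stood at 331 CPM (308 to 354) against 83.0 CPM and at 196 CPM (169 to 227) against 92.1 CPM. Of 42 R-spondin and Wnt genes that entered, 4 were higher (Dkk2, Sfrp2, Sfrp4 and Fzd6) and 3 lower (Ror1, Wnt4 and Wnt10b), with medians of -0.10 and 0.05. Fzd6, a Wnt receptor gene, had only 5 and 3 UMIs in members. The co-receptor gene Lrp6 had log2 ratios of 0.33 and 0.48 and the nuclear effector gene Tcf7l2 had -0.10 and 0.11. Lgr4, the relative of Lgr5 in the same receptor family, stood at 16.0 CPM in members and 16.0 CPM in reference cells of the Bap1WT library, and at 7.59 and 8.26 CPM in the Bap1ΔMPC library.

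In the IGF axis, members had more Igf1 and Igfbp3 UMIs and fewer of Pappa, the paralog of the gate gene Pappa2. Pappa, likewise a protease of IGF-binding proteins, stood at 8.82 CPM (5.53 to 13.4) against 37.1 CPM in the Bap1WT library and at 7.59 CPM (3.05 to 15.6) against 45.8 CPM in the Bap1ΔMPC library. Igfbp3, which carries IGFs in the blood and matrix, had log2 ratios of 1.09 (1.02 to 1.15) and 1.44 (1.30 to 1.58). Igf1, the ligand, had 1.15 and 0.70 and so passed 2-fold in the Bap1WT library alone. Igfbp3 and Pappa were the only called genes of 19 that entered. Pappa was lower in members of each gate gene, at 25.5, 26.2 and 1.31 CPM for Lgr5 alone, Pappa2 alone and Kdr alone in the Bap1WT library and at 12.5, 5.46 and 4.84 CPM in the Bap1ΔMPC library, though single groups rest on 1 to 6 UMIs.

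Of 16 other VEGF pathway genes that entered, 0 were higher and only Pgf, a VEGF-family ligand, was lower, with log2 ratios of -2.88 (-4.10 to -1.90) and -1.28 (-1.97 to -0.66). The receptor gene Flt1 had -0.65 and 2.36, on 6 and 16 UMIs in members. The co-receptor gene Nrp1 had -1.29 and -0.69, and Vegfa had -0.87 and -0.47. Of 31 limb patterning genes that entered, 0 were higher and 0 lower, with medians of 0.01 and 0.10. Over all genes tested 0.706% were higher and 2.32% lower, so the limb patterning counts are near the share of all genes.

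Kcnj8, a potassium channel subunit best known from pericytes, stood at 59.4 CPM (50.2 to 69.7) against 11.4 CPM and at 40.1 CPM (28.3 to 55.3) against 11.9 CPM. Its partner Abcc9 had log2 ratios of 0.84 (0.55 to 1.13) and 1.30 (0.62 to 1.91). Of the 9 mural genes that entered, Kcnj8 was the higher one and Cspg4, Tagln and Des were lower. Over all genes tested 0.706% were higher and 2.32% lower. Tagln and Des rest on 7 and 5 UMIs in Bap1WT members and on 3 and 1 in Bap1ΔMPC members. The list summed to 133 CPM in members against 137 CPM in reference cells of the Bap1WT library and to 105 against 126 CPM in the Bap1ΔMPC library. The pericyte genes Rgs5 and Notch3 had 2 and 3 UMIs in members of the Bap1WT library and 1 and 10 in those of the Bap1ΔMPC library.

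The other genes with the largest ratios upward were Cd24a, a small surface glycoprotein gene, with log2 ratios of 3.36 and 2.03, the protocadherin gene Pcdh20 (2.27 and 2.08), the G-protein regulators Rgs4 (2.66 and 1.73) and Rgs6 (2.17 and 2.01), Bckdhb of branched-chain amino acid breakdown (2.20 and 2.33), and Cgref1 (1.77 and 2.85). Creb3l3, Camk2a and Unc13c lay between 1.82 and 1.98 in both libraries, on 7 to 65 UMIs in members, and the uncharacterised transcript 2610016A17Rik had 2.99 and 2.48. Several were as high in other cells. In the Bap1WT library Cd24a stood at 57.3 CPM in cells over the tendon gate, beside 67.0 CPM in members, and cells with P of 25 or more had 25.7 CPM of Rgs6, 74.8 CPM of Pcdh20 and 14.0 CPM of Unc13c, beside 17.6, 92.3 and 7.62 CPM in members. In the Bap1ΔMPC library Rgs4 stood at 20.3 CPM in cells over the tendon gate and at 11.9 CPM in members. Csf1r, the CSF1 receptor gene, was called higher on 16 and 2 UMIs, while the macrophage genes C1qa and C1qb had 4 and 6 UMIs in members of the Bap1WT library and 2 and 3 in those of the Bap1ΔMPC library.

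Genes lower in members included signals to immune cells and markers of the other P-poor FAPs. Ccl11 (eotaxin) stood at 77.4 CPM (66.9 to 89.1) against 642 CPM in the Bap1WT library and at 71.6 CPM (55.4 to 91.1) against 442 CPM in the Bap1ΔMPC library. Ccl8, another chemokine gene, stood at 5.21 CPM against 30.7 CPM in the Bap1WT library and had 1 UMI in members of the Bap1ΔMPC library. Hhip, an antagonist of hedgehog ligands, was at 3.21 CPM (1.39 to 6.32) against 51.9 CPM and at 3.25 CPM (0.671 to 9.51) against 48.0 CPM, on 8 and 3 UMIs. The retinoic acid synthesis gene Aldh1a2 had log2 ratios of -4.23 and -2.72, Tnfaip2 had -3.47 and -3.73 and the phospholipase gene Pla1a had -2.46 and -2.47. Cxcl14 and Sparcl1 were the 2 lower of 10 Cxcl14-type genes, with Cxcl14 at -1.84 and -1.37 and Sparcl1 at -2.96 and -1.31. The BMP-family gene Gdf10, at -2.55 and -1.92, and Tgfb1, at -1.67 and -2.15, were lower too, with Fstl3, among 36 BMP and TGF-β genes of which 0 were higher.

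Transcripts of dividing cells were rarer in members than in reference cells. Of 15 cell cycle genes, Top2a, Cdk1, Cenpf and Ube2c were over 2-fold lower in both libraries and 0 were higher, with list medians of -1.72 and -0.62. Top2a, a mitotic topoisomerase, had 2 and 1 UMIs in members and Kif23 1 and 1. The list summed to 67.0 CPM in members against 154 CPM in reference cells of the Bap1WT library and to 180.0 against 248 CPM in the Bap1ΔMPC library. Lrrc55 had 0 and 1 UMIs and Chst1 1 and 1, so that their ratios rest on single counts.

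The members differed among themselves by gate gene, and the leading genes did not all come from the same cells. Fgf9 stood at 76.4 and 66.8 CPM in members with Lgr5 alone of the Bap1WT and Bap1ΔMPC libraries, and at 5.22 and 4.84 CPM in those with Kdr alone. Sema3d likewise stood at 80.7 and 129.5 CPM with Lgr5 alone and 43.1 and 7.27 CPM with Kdr alone. Fbn2 ran the other way, at 97.7 and 75.2 CPM with Lgr5 alone and at 338 and 203 CPM with Kdr alone. In the Bap1ΔMPC library Eln reached 6889 CPM with Lgr5 alone, beside 858 CPM with Pappa2 alone and 1635 CPM with Kdr alone. Sfrp2 had 0 UMIs in the 22 Bap1ΔMPC members with Lgr5 alone, where the Bap1WT members with Lgr5 alone stood at 2322 CPM. Of the 15 genes with the largest ratios, 15 were over 2-fold above reference cells in Bap1WT members with Kdr alone and 9 in those with Lgr5 alone, and 12 and 9 in the Bap1ΔMPC library. These genes were chosen for high levels in members. Cells outside the members carried many of them too, with 11 of the 15 over 2-fold in Bap1WT cells over the tendon gate and 11 in Bap1WT cells with 1 gate UMI, and 5 and 2 in the Bap1ΔMPC library.

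**Figure D3:**
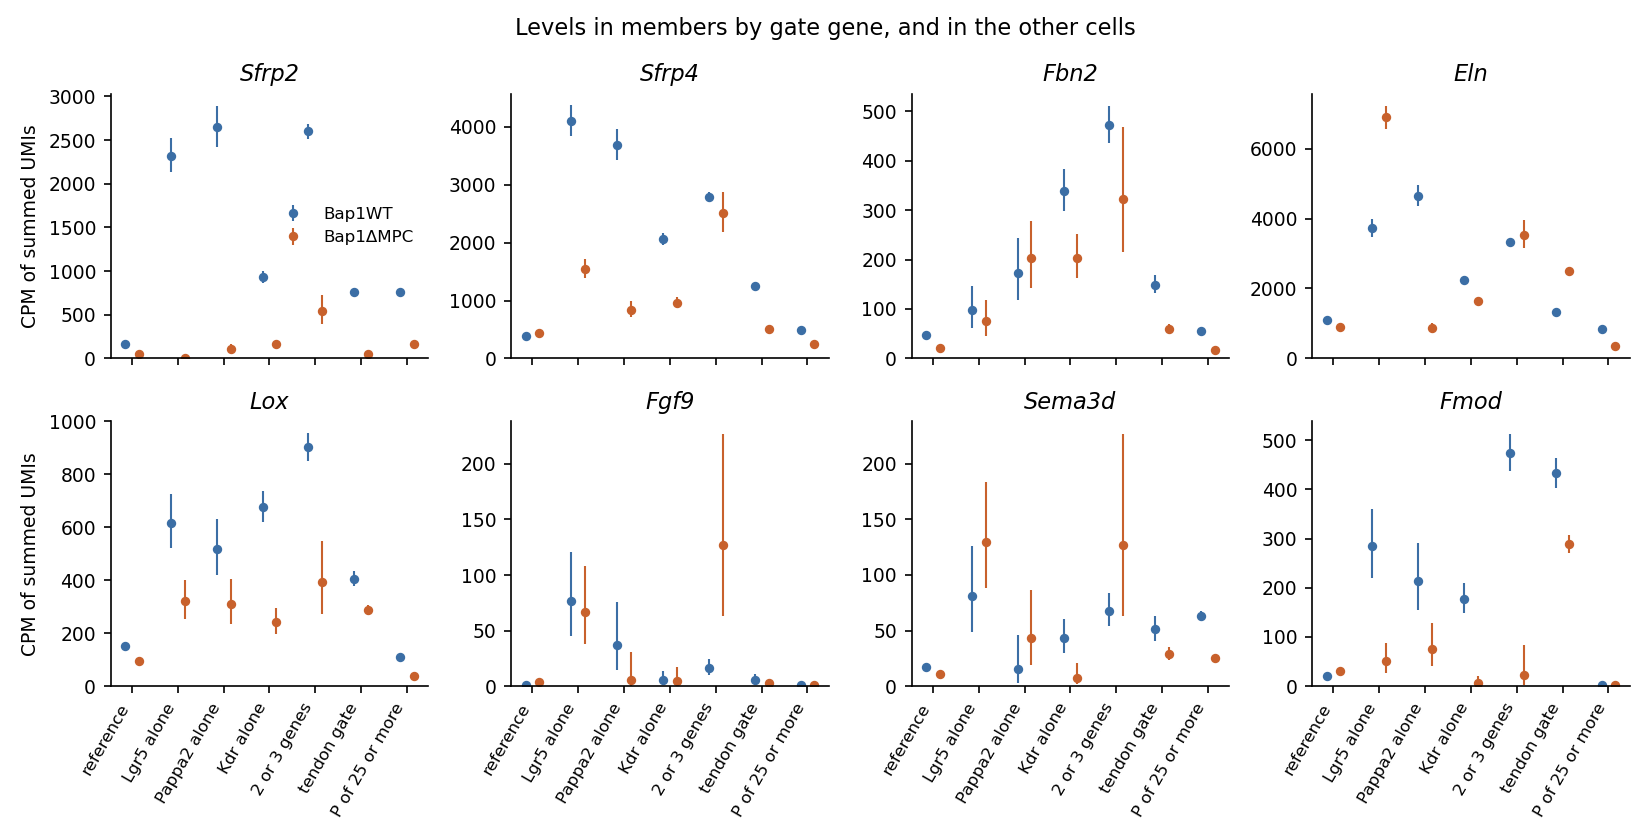
CPM of summed UMIs for 8 genes in reference cells, in members by the gate genes detected, in cells with 3 or more tendon-gate UMIs and in cells with P of 25 or more, for the Bap1WT (blue) and Bap1ΔMPC (orange) libraries. Points are the library's level and bars the exact Poisson 95% interval, and Sfrp2 lies at 935 CPM or higher in every group of Bap1WT members and at 542 CPM or lower in every group of Bap1ΔMPC members.

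The tendon gate removed cells that shared these transcripts. Of the 127 and 271 cells with P under 25 and 3 or more UMIs of Chad, Tnmd and Cilp2, 24.4% and 4.80% had 2 or more UMIs of the 3 gate genes, and Fmod, a tendon proteoglycan gene, stood at 433 and 289 CPM there. Fmod was at 345 CPM (323 to 369) in members of the Bap1WT library against 20.2 CPM in reference cells, and at 33.6 CPM (22.8 to 47.7) against 31.6 CPM in the Bap1ΔMPC library. Of the members, 152 of 162 and 59 of 72 had no UMI of the tendon gate. Over 10 other tendon genes, Fmod among them, the sum was 3409 CPM in members against 2963 CPM in reference cells of the Bap1WT library and 3321 against 3814 CPM in the Bap1ΔMPC library. The tendon transcription factor gene Scx had 0 and 4 UMIs in members. With reference cells held under the tendon gate, 98 genes were over 2-fold higher and 302 lower in both libraries, against 89 and 293. Members with no tendon-gate UMI, chosen after seeing the data, gave 167 genes over 3-fold higher and 103 lower between libraries, against 173 and 117. The part of tendon transcripts in single ratios was not tested.

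The libraries were then compared within members, with the same ratio in reference cells beside it. Of 8930 genes with 20 or more UMIs in members, 173 were over 3-fold higher in the Bap1ΔMPC library (1.94%) and 117 over 3-fold lower (1.31%), beside 3.51% and 2.21% in reference cells, where more UMIs allowed 14087 genes to enter. Of these genes 39 (22.5%) and 27 (23.1%) passed 3-fold the same way in reference cells. The median log2 ratio in members was 0.28, and under TMM scaling, where it was -0.05, 83 genes were higher and 196 lower, so that higher genes were 29.7% of those called in place of 59.7%. The direction of the balance thus turned with the scaling. Because the Bap1WT members mostly hold cells with several gate genes or with Kdr and the Bap1ΔMPC members do not, these ratios compare 2 sets of cells of different make-up, and the part of that in each ratio was not tested.

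**Figure D4:**
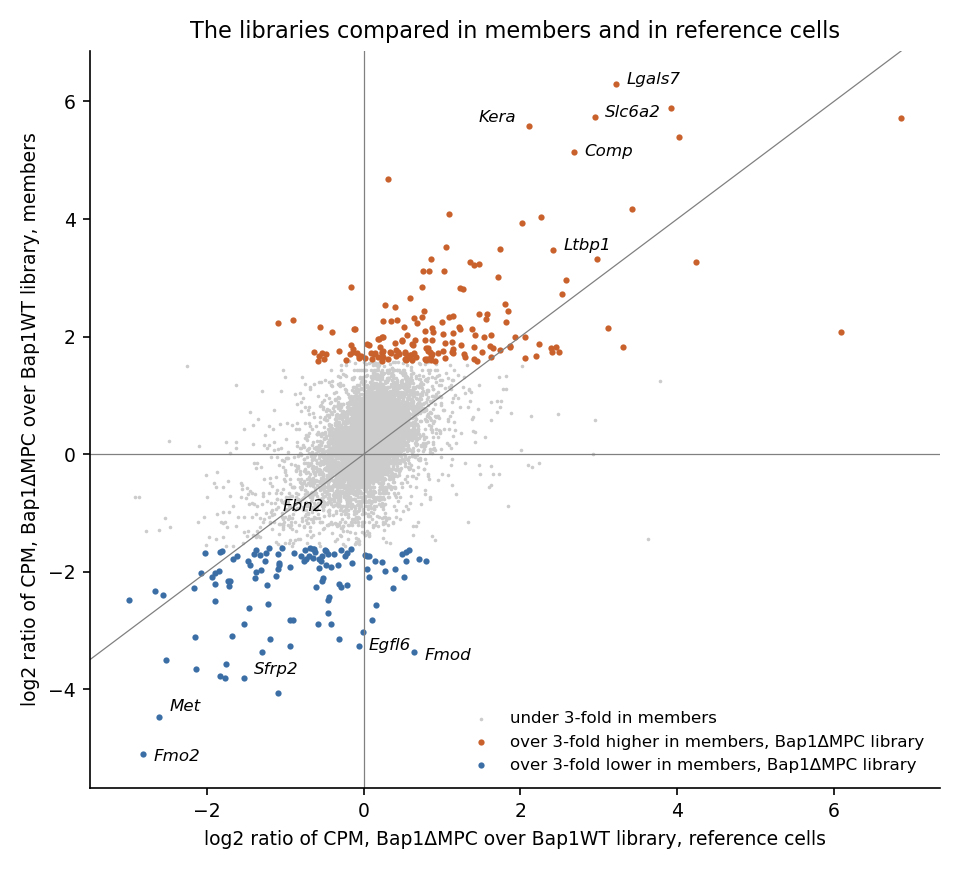
Log2 ratio of CPM in the Bap1ΔMPC over the Bap1WT library, in reference cells (x axis) and members (y axis), with the line of equal ratios. Each grey point is a gene under 3-fold in members, orange and blue points are the 173 genes over 3-fold higher and the 117 over 3-fold lower in members, and Fmod lies at -3.36 in members and 0.64 in reference cells.

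Most of the genes named as lower in Bap1ΔMPC members were above reference cells in Bap1WT members. Sfrp2 had a log2 ratio between libraries of -3.81 (-4.06 to -3.56) in members and -1.53 in reference cells. Fmod had -3.36 (-3.93 to -2.84) in members and 0.64 in reference cells, and Egfl6, a secreted EGF-repeat protein gene, had -3.26 (-4.72 to -2.10) and -0.07. The hepatocyte growth factor receptor gene Met, at 60 UMIs in Bap1WT members and 1 in Bap1ΔMPC members, had -4.47 (-9.80 to -1.94) and -2.62, and the tight junction gene Cldn10 had -3.50 and -2.53. Fmo2, a flavin monooxygenase gene, had -5.10 (-8.16 to -3.23) on 186 and 2 UMIs, beside -2.82 in reference cells, and in the Bap1WT library it was lower in members than in reference cells (74.6 against 118 CPM). Gm26771 had -3.77 and -1.84, and P2ry10b, with 70 and 0 UMIs, was at least 3.11 log2 units lower. Ntng1, a membrane-bound netrin gene, had 24.9 CPM in members of both libraries, while reference cells had 1.62 and 12.3 CPM, a difference of -2.92 between the log2 ratios. Fbn2 was lower by similar ratios in both kinds of cells, -1.04 (-1.29 to -0.80) in members and -1.17 in reference cells, and Eln differed by -0.05 in members and -0.29 in reference cells.

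Higher in Bap1ΔMPC members were several genes whose UMIs lay in few cells. Lgals7 had 3 and 87 UMIs, 67 of the 87 in 1 cell, and a log2 ratio of 6.29 in members and 3.22 in reference cells. Kera (keratocan, a tendon and cornea proteoglycan gene) had 4 and 71 UMIs, 40 of them in 1 cell, with 5.58 and 2.10. Comp, a cartilage and tendon matrix gene, had 9 and 118 UMIs spread over 19 Bap1ΔMPC members, with 5.15 (4.17 to 6.31) and 2.68. The norepinephrine transporter gene Slc6a2 had 0 and 59 UMIs over 14 cells and was at least 5.73 log2 units higher, beside 2.95 in reference cells. Lgals3 had 23 and 140 UMIs with 4.04 and 2.26. Ltbp1, which stores latent TGF-β in the matrix, was seen in 47 of 72 Bap1ΔMPC members and had 3.47 and 2.42, and the metalloprotease gene Adam12 had 3.32 and 2.98. Igfbp5 had 2.27 in members, with 618 of its 1282 UMIs in 1 Bap1ΔMPC cell, and 0.35 in reference cells.

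In the pathways of the gate genes, Rspo1 and Wnt2 were over 3-fold higher and Nkd1 and Sfrp2 over 3-fold lower of 28 Wnt and R-spondin genes that entered. Rspo1, a ligand of Lgr5, had 8 and 16 UMIs in members, and Wnt2 had 52 and 70. Of 15 VEGF genes, Pgf and the receptor gene Flt1 were over 3-fold higher, on 21 and 16 UMIs in Bap1ΔMPC members, with those of Flt1 in 5 cells. In the guidance list, the GDNF receptor gene Ret, Plxnd1 and Epha3 were over 3-fold higher, and Epha4 was over 3-fold lower. Of 20 limb patterning genes, Hoxa11 and Tbx5 were over 3-fold higher, on 16 and 15 UMIs in Bap1ΔMPC members, and 0 were lower. Over all genes tested in members, 1.94% were higher and 1.31% lower. Tbx5 had log2 ratios of 1.64 in members and 2.05 in reference cells, and Epha4 had -1.735 and -1.61. Hoxa11 had 1.85 and -0.16, Epha3 1.74 and -0.63, Flt1 2.85 and -0.16, and Ret 1.99 and 0.23. Plxnd1 had 2.38 and 1.47, Pgf 2.83 and 1.22, Rspo1 2.435 and 0.77, Wnt2 1.86 and 0.625, and Nkd1 -1.67 and -0.62.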

How the data were processed

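Droplet 3′ single-cell libraries from sorted FAPs were analysed, 1 per genotype. The authors deposited a table of UMI counts per gene (31053 genes) and cell for each library, not normalized. The submitters' processing notes name bcl2fastq 2.20.0, FastQC 0.11.7, Cell Ranger 3.1.0, R 3.6.1, Seurat 3.2.1 and the mm10 build. The cells had been filtered by the authors, with thresholds not given in the sources used here, and doublets were gated in that processing per the study's methods. Scrublet marked 2 and 1 cells, under 0.5%, and none was a member, so no cell was removed.

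UMIs were summed over cells and given per 1000000 UMIs (CPM) with exact Poisson intervals. Ratios have conditional binomial and shares Clopper-Pearson intervals, all at 95%, for counting error only. A count of 0 was read as up to 3 UMIs. With 1 library per genotype no test was made. Genes with 20 or more UMIs were called by size, at 2-fold in both libraries for members against reference cells and at 3-fold between libraries. Python 3.11.15, numpy 2.4.6, scipy 1.17.1, scanpy 1.11.5 and scikit-learn 1.9.0 were used. The calls were tested on simulated data, where 100 of 100 higher and 98 of 100 lower genes changed 4-fold were called among 12567 genes for members against reference cells, with 15 and 24 unchanged genes called too. At 6-fold between libraries, 100 and 99 of 100 were called among 8814 genes, with 6 and 67 unchanged ones.

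Members and the 21 gene lists were chosen with earlier results of these data known. The lists covered Wnt and R-spondin, IGF, VEGF, elastic fibre, collagen, BMP and TGF-β, neurotrophic and guidance, limb patterning, FAP, endothelial, mural, Schwann, muscle stem, immune, tendon, cartilage and bone, adipocyte, cell cycle, stress, Cxcl14-type and Dpp4-type genes. Named genes were the 15 higher and 10 lower with the largest smaller ratio and the 8 each way between libraries (50 or more UMIs), list genes past the fold with up to 4 others per list with the most UMIs, the 3 each way whose library ratio differed most between members and reference cells, and Pecam1, Cdh5, Bap1, Pdgfra and Ly6a. Other named genes were chosen after their values were seen. Alternatives changed the gate, depth, scaling, filters, folds and neighbour settings. Some genes that this rule names are not reported here.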

Additional observations from a re-analysis of the deposited data

Results flagged for a closer look

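Some values moved in opposite directions in the libraries or lay outside the cells compared, and none of these differences was tested. Lgals7 was lower in members than in reference cells of the Bap1WT library (log2 ratio -1.59) and higher in the Bap1ΔMPC library (1.49), with 67 of its 87 UMIs there in 1 cell. Kera did likewise, at -2.49 and 0.99, with 40 of 71 UMIs in 1 cell. The noradrenaline transporter gene Slc6a2 had -2.01, a bound from 0 UMIs in Bap1WT members, and 0.77. Ltbp1 had -0.77 and 0.29 and was spread over 47 of 72 Bap1ΔMPC members. Between libraries, Fmod had a log2 ratio of -3.36 in members and 0.64 in reference cells, and Sfrp4 had -1.16 and 0.24. Outside the members, 2 or more UMIs of Lgr5, Pappa2 and Kdr were seen in 2.19% of cells with P of 25 or more of the Bap1WT library, and in 24.4% and 4.80% of cells over the tendon gate of the Bap1WT and Bap1ΔMPC libraries.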

How the results depend on the processing

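No paired analysis was possible because there was only 1 library a genotype, with no replicate numbers to share. No named ratio or share reversed, but the balance between libraries did, from 173 genes higher and 117 lower to 83 and 196 with TMM scaling. The members' share, 5.31% and 2.30% of cells with P under 25 in the Bap1WT and Bap1ΔMPC libraries, was 3.44% and 1.22% with 3 or more gate UMIs, 2.40% and 1.06% after thinning, 3.37% and 1.44% with 2 gate UMIs per 10000, 3.95% and 1.64% of all cells, and 6.32% without the tendon gate in the Bap1WT library. Member neighbours were 45.0% and 9.31% with 2000 variable genes. Against reference cells, 223 genes were higher with 1 or more UMIs, 31 higher and 66 lower at 3-fold, and 47 and 105 with 10 or more UMIs in members, chosen after seeing the data. Between libraries, 62 genes were higher and 45 lower with 50 or more UMIs, 801 and 205 with 1 or more and 707 and 348 at 2-fold. Other gates chosen after seeing the data, such as members without Kdr alone (114 and 252 against reference cells, 181 and 110 between libraries), stayed within 1.5 times. Over the named genes, 669 of the recomputed ratios against reference cells and 194 of those between libraries moved by less than the counting interval, and 111 and 37 moved by more. Low counts limit single genes.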

Other observations

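Further lists were compared in the same way. Over all genes tested 0.706% were higher and 2.32% lower in both libraries, so 0 calls in a list this short say little about it. Of 9 Dpp4-type genes outside the gate, 0 passed 2-fold in both libraries, with median log2 ratios over reference cells of 0.42 and 0.12 in the Bap1WT and Bap1ΔMPC libraries. All 9 had UMIs in members, where they summed to 4723 and 4662 CPM. None of the 17 stress and immediate early genes passed it either, with medians of 0.05 and -0.12. Of 5 adipocyte genes that entered, only the fatty acid carrier gene Fabp4 was lower, with -1.95 and -2.05. Adipoq, Cidec, Lep and Cfd had 0 UMIs in members. In reference cells they had 5, 0, 0 and 2 UMIs in the Bap1WT library and 93, 5, 1 and 6 in the Bap1ΔMPC library. Sox9 and Runx2, regulators of cartilage and bone, were the 2 lower of 4 skeletal genes that entered. Acan and Col2a1 had 0 UMIs in members, beside 2 and 5 in Bap1WT and 59 and 17 in Bap1ΔMPC reference cells. Of 9 tendon genes, Prg4 (lubricin) was lower, with -1.57 and -1.10. Reference cells include cells over the tendon gate, so the tendon and skeletal values set gated members against ungated cells. Of 8 endothelial genes that entered, Plvap was lower, with -2.24 and -1.39, and 0 were higher. Of 7 muscle stem cell genes and 4 Schwann cell genes, 0 passed. Of 8 immune genes, Csf1r alone passed.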
